A study of Homo sapiens with 18 samples.

Results

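The genes described here encode the heat shock proteins and their co-chaperones, and were chosen by symbol, with earlier results of these data known. The symbols were those of the HSP90, HSP70, HSP110, HSP60, HSP10 and small heat shock proteins, the DNAJA, DNAJB and DNAJC proteins, and BAG1 to BAG6. Of the 23106 genes in the count tables, 77 carried such a symbol, after HSPA5, DNAJB9, DNAJB11 and DNAJC3, which work in the endoplasmic reticulum, had been left out. They comprised 27 DNAJC, 12 HSP70, 11 DNAJB, 8 small heat shock protein, 6 BAG, 5 DNAJA, 3 HSP90, 3 HSP110 and 2 HSP60 or HSP10 genes. The set is mostly cytosolic but not wholly so, since 8 members (HSPA9, HSPD1, HSPE1, DNAJA3, DNAJC11, DNAJC15, DNAJC19 and DNAJC30) are known for a place in mitochondria and 6 (HSPA13, DNAJC1, DNAJC10, DNAJC14, DNAJB12 and DNAJB14) in the endoplasmic reticulum.

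Polyadenylated RNA was sequenced from 3 established human cell lines, each in normoxia and in hypoxia with 3 replicates, giving 18 samples. HKC-8 is a line of renal proximal tubule cells, RCC4 a line of renal carcinoma cells labelled as carrying VHL, the ubiquitin ligase subunit that marks HIF for destruction, and HepG2 a line of hepatocellular carcinoma cells. Hypoxia was 0.5% oxygen for 16 h in HKC-8 and HepG2 cells, although hypoxic HKC-8 titles state 0.1%. For RCC4 the labels give 1% oxygen for 24 h and the study's own account of its RNA-seq 0.5% for 16 h, so the RCC4 response is set beside the others without a test of the difference.

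Chaperones of the HSP70 class bind exposed hydrophobic stretches of unfolded proteins and release them in a cycle driven by ATP. DNAJ proteins, also called HSP40, bring clients to HSP70 and speed its ATP hydrolysis. Most BAG proteins and the HSP110 proteins exchange the nucleotide of HSP70, and HSP90 acts later on clients such as kinases and steroid receptors. Many of these genes are transcribed under HSF1, which binds heat shock elements, runs of inverted GAA units in the promoter.

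The total count per sample was 40915980 to 97984260. All 8 liver markers examined were at 1 CPM (TMM-normalized counts scaled to a fixed library total) or more in HepG2 cells (summed level 35107 to 45687 CPM), against 0 of 8 in HKC-8 and 1 of 8 in RCC4 cells. Of 10 kidney tubule markers, HKC-8 cells had 3 at 1 CPM or more, RCC4 cells 5 and HepG2 cells 4, PAX8 in each, so this list did not set the kidney lines apart. All 10 hypoxia reference genes examined rose in HKC-8 and HepG2 cells, as did the 8 tested in RCC4 cells. Nothing in the labels says that replicates came from separate cultures, so p-values measure the spread between these samples, which may be technical.

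Reads of some members could not be assigned with certainty. Fragments that mapped to several places had been removed. Some members also overlap a gene on the opposite strand, and the strand setting of the counting is not given. The share of 50-base windows of the longest transcript also present in another gene, on either strand, was 75.1% for HSPA1A and 73.6% for HSPA1B, which are near-identical copies, 45.8% for HSPA6, 84.9% for HSPB2, which overlaps CRYAB, and 78.5% for DNAJC9, which overlaps FAM149B1. For BAG2, which overlaps RAB23, it was 44.3%, for DNAJC14 51.3% and for DNAJC17 31.3%. A second limit concerned the stretch of chromosome 6 that holds BAG6, HSPA1A, HSPA1B and HSPA1L. Of 81 coding genes within 1 Mb of them, 75.3% were under 1 CPM in normoxic HKC-8 and 86.4% in normoxic RCC4 cells, against 48.1% in HepG2 cells, where the shares over all coding genes were 40.9%, 40.4% and 39.4%. CLIC1, a gene of this stretch, was at 0 CPM in every HKC-8 and RCC4 sample and at 222 to 264 CPM in HepG2 cells. Differences of these 4 members between lines are therefore not read as expression, although those tested are included in the normoxic counts below. The cause was not tested.

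To show what the promoters of the heat-inducible members share, the 250 bases before the RefSeq start were searched on both strands for GAANNTTC or TTCNNGAA, a pair of heat shock units. Such a pair was present in 6 of 13 genes of a heat shock core list (46.2%) and in 14 of the 65 members with a promoter in the table (21.5%), against 11.7% of all 27305 promoters. A run of 3 units was present in HSPA8, HSPA6 and DNAJB6, 4.62% of members against 0.439% of all. The letters ACGTG or GCGTG, the core of the hypoxia response element, stood in 60% of member promoters, 46.2% of those of the core list and 43.1% of all promoters. The core promoters with a pair of units, as the GRCh37 assembly has them, read as follows, 5′ to 3′ on the gene's strand, with the units in capitals; for HSPA8 only the stretch free of exons is given, and DNAJA1, whose pair lay outside its exon-free stretch, is not shown. They lie at chr11:122933061-122933094 on the minus strand (HSPA8) and, on the plus strand, at chr1:161494080-161494329 (HSPA6), chr6:31783070-31783319 (HSPA1A), chr6:31795265-31795514 (HSPA1B) and chr7:75931740-75931989 (HSPB1).
HSPA8: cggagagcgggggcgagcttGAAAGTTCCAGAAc
HSPA6: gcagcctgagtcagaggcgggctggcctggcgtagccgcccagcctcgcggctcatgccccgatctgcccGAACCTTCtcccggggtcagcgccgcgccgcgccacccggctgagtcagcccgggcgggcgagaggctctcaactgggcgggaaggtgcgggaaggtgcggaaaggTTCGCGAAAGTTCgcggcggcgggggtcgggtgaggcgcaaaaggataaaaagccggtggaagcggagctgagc
HSPA1A: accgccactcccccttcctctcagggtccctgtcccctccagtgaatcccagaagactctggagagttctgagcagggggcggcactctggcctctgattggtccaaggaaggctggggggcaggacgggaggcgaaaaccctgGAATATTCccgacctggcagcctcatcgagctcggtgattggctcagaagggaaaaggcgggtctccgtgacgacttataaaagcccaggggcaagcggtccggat
HSPA1B: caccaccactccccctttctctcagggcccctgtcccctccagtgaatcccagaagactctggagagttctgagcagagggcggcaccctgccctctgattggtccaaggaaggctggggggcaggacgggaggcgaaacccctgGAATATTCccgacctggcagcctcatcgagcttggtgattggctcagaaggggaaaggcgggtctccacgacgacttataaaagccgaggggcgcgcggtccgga
HSPB1: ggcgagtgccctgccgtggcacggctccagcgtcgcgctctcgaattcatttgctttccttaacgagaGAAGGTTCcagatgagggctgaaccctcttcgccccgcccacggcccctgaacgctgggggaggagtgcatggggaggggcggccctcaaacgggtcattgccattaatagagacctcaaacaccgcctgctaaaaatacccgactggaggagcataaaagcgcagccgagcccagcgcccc

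In hypoxia several chaperones and co-chaperones, not all of them cytosolic, were called lower in each cell line, although not every call held in the checks below. HSPA8, HSPH1, HSPA4, HSPE1, HSP90AA1, DNAJB1, DNAJB4, BAG2 and DNAJC15 were called lower in all 3 lines, and 0 members were called higher in all 3, where 3.43% and 3.81% of the 11418 genes tested in each line were called lower and higher throughout. In HKC-8 cells 20 of 65 members tested fell (30.8%), where 20.4% of all genes tested were called and 9.12% were lower, and 2 rose (3.08%, against 11.2% of all genes). In RCC4 cells 21 of 61 fell (34.4%, background 24.2% of 50.1% called) and 10 rose (16.4%, background 25.9%). In HepG2 cells 18 of 60 fell (30%, background 19.2% of 39.1% called) and 8 rose (13.3%, background 19.9%). The members' median log2 fold change stood at -0.19 for HKC-8, -0.065 for RCC4 and -0.052 for HepG2 cells, beside 0.0036, -0.0018 and -0.0044 over all genes tested. Of the 66 members tested in at least 1 line, 58 were tested in all 3 and 20 were called in none, among them HSPA9, DNAJC9, DNAJC10 and BAG5. BAG1 and DNAJC21 were called lower in HKC-8 and higher in RCC4 cells, and BAG3 lower in HKC-8 and RCC4 and higher in HepG2 cells. DNAJB2 rose in HKC-8 and RCC4 cells, DNAJB13 in HKC-8 and HepG2 cells, and DNAJC18 and HSPA12A in RCC4 and HepG2 cells.

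Every hypoxic sample was below every normoxic one for 31 of 65 members in HKC-8, 27 of 61 in RCC4 and 23 of 60 in HepG2 cells, where this held for 19.5%, 28.3% and 25% of all genes tested. In HKC-8 cells the same-numbered normoxic and hypoxic samples deviated together, and with the replicate number as a block 29 members fell and 6 rose, where 21.6% and 21% of all genes were called. Without the block, the HKC-8 count rested on single libraries: 4 members were called lower without normoxic replicate 1 or hypoxic replicate 1, and 12 without normoxic replicate 2 or hypoxic replicate 3. The block was not used in these omissions, and the share of all genes called in them is not given here. In 1 fit of all 18 samples, which shares the spread, the RCC4 counts were 9 lower and 5 higher. Over all 15307 genes tested in that fit, 1419 were called lower and 1867 higher in RCC4 cells. That fit lost the RCC4 calls of HSPA8, HSPH1, HSPE1, HSP90AA1, DNAJB1 and DNAJC15 among the genes called lower in all 3 lines, and leaving out normoxic HKC-8 replicate 1 lost the HKC-8 calls of the same genes, so that HSPA4, DNAJB4 and BAG2 kept the call in each line under both. It also lost the RCC4 calls of HSP90AB1, HSPA2, HSPD1, DNAJA1, DNAJB2, DNAJB14 and BAG1, and the HepG2 calls of BAG3, BAG6 and HSPB8. The calls of BAG2 carry the limit given above for its overlap with RAB23.

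**Figure D1:**
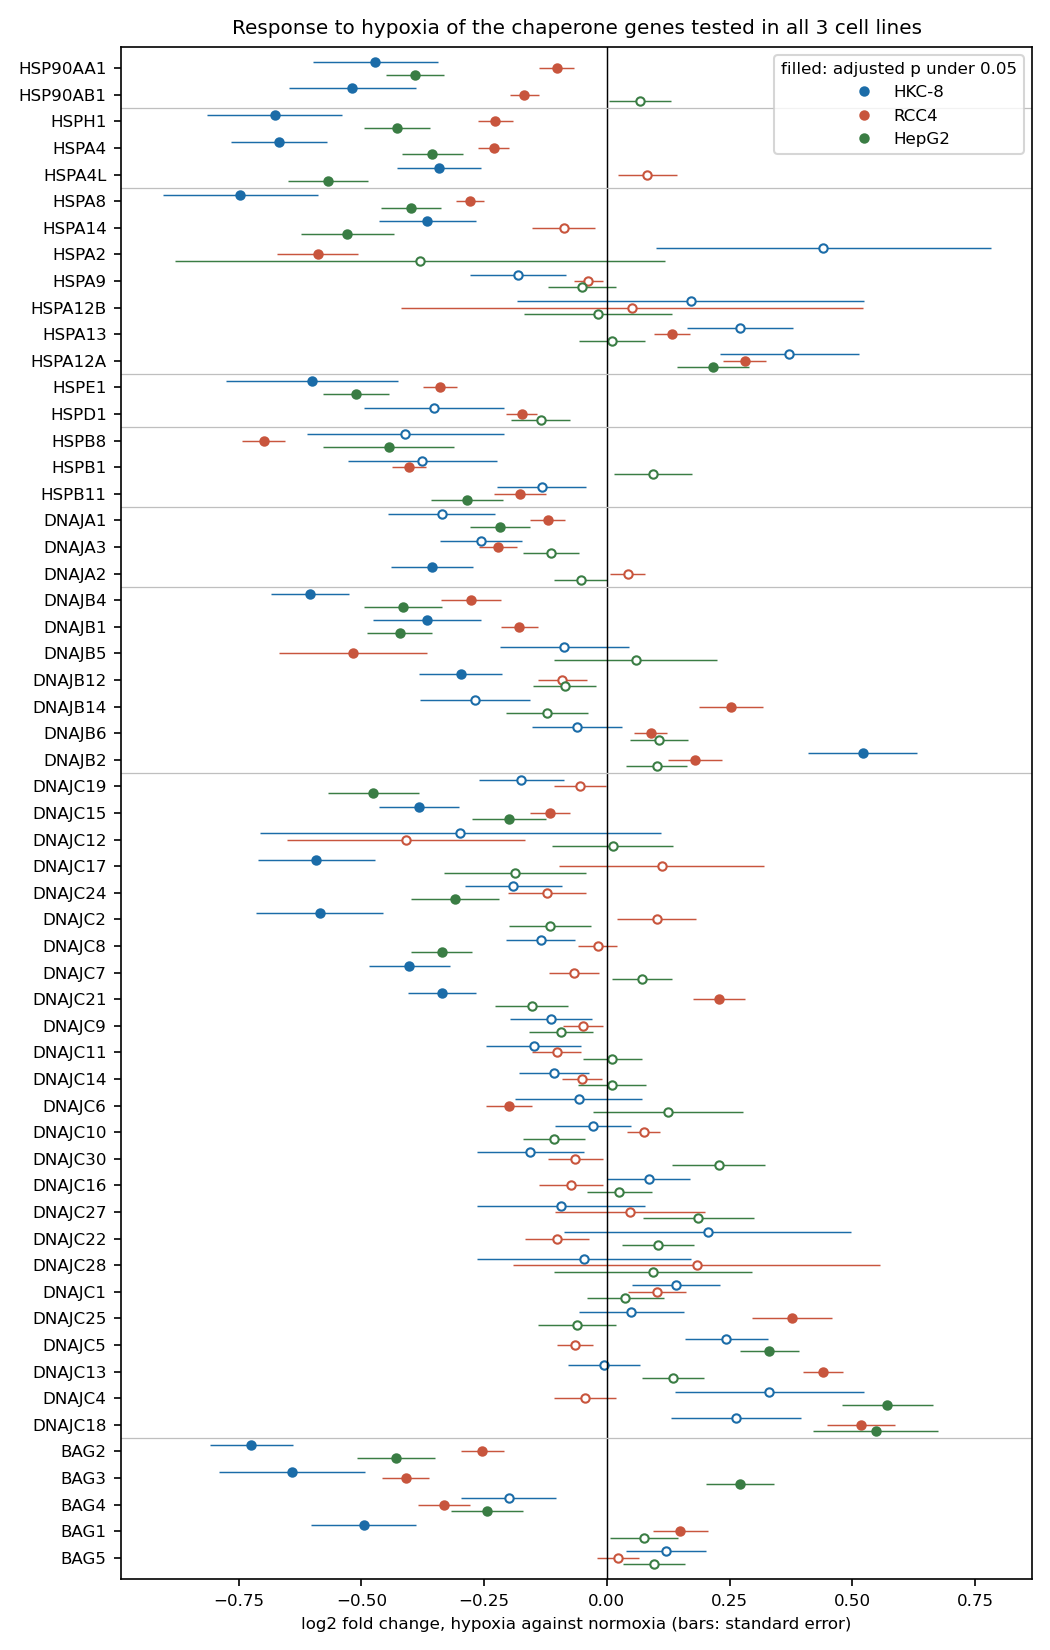
Log2 fold change in hypoxia (horizontal axis, bars show the standard error) of 57 members tested in all 3 cell lines, grouped by class from HSP90 at the top to BAG at the bottom, with filled points at an adjusted p under 0.05. DNAJB13 lies beyond the axis and is not drawn; the HSP110 genes HSPH1 and HSPA4 and the HSP70 gene HSPA8 sit left of 0 in every line, and BAG3 lies left of 0 in HKC-8 and RCC4 and right of 0 in HepG2 cells.

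The 13 genes of the heat shock core list, classical heat-inducible genes and their constitutive relatives, are described first as a list. In HKC-8 cells 7 of 13 fell and 0 rose, with a median log2 fold change of -0.52, and 11 fell with the replicate block; the count was 0 without normoxic replicate 1, 1 without hypoxic replicate 1, and 3 without normoxic replicate 2 or hypoxic replicate 3. In RCC4 cells 10 of 12 tested fell and 0 rose, with a median of -0.20, and 2 fell in the joint fit of 18 samples. In HepG2 cells 6 of 10 tested fell and 1, BAG3, rose, with a median of -0.30, and 0 rose in the joint fit. The shares of all genes tested that were called lower were 9.12%, 24.2% and 19.2% in HKC-8, RCC4 and HepG2 cells. In the joint fit 1419 of 15307 genes were called lower in RCC4 cells, and 2333 were called higher in HepG2 cells. Summed per length, the core list made up 2.48% ± 0.24 (SD, n = 3) of the transcripts in normoxic and 1.75% ± 0.17 in hypoxic HKC-8 cells. The same sum was 1.12% ± 0.02 and 0.93% ± 0.02 in RCC4 cells, and 1.35% ± 0.06 and 1.18% ± 0.01 in HepG2 cells. As these are shares of bulk RNA, less chaperone RNA per cell cannot be told apart from more RNA of other genes or from fewer cells that express them.

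**Figure D2:**
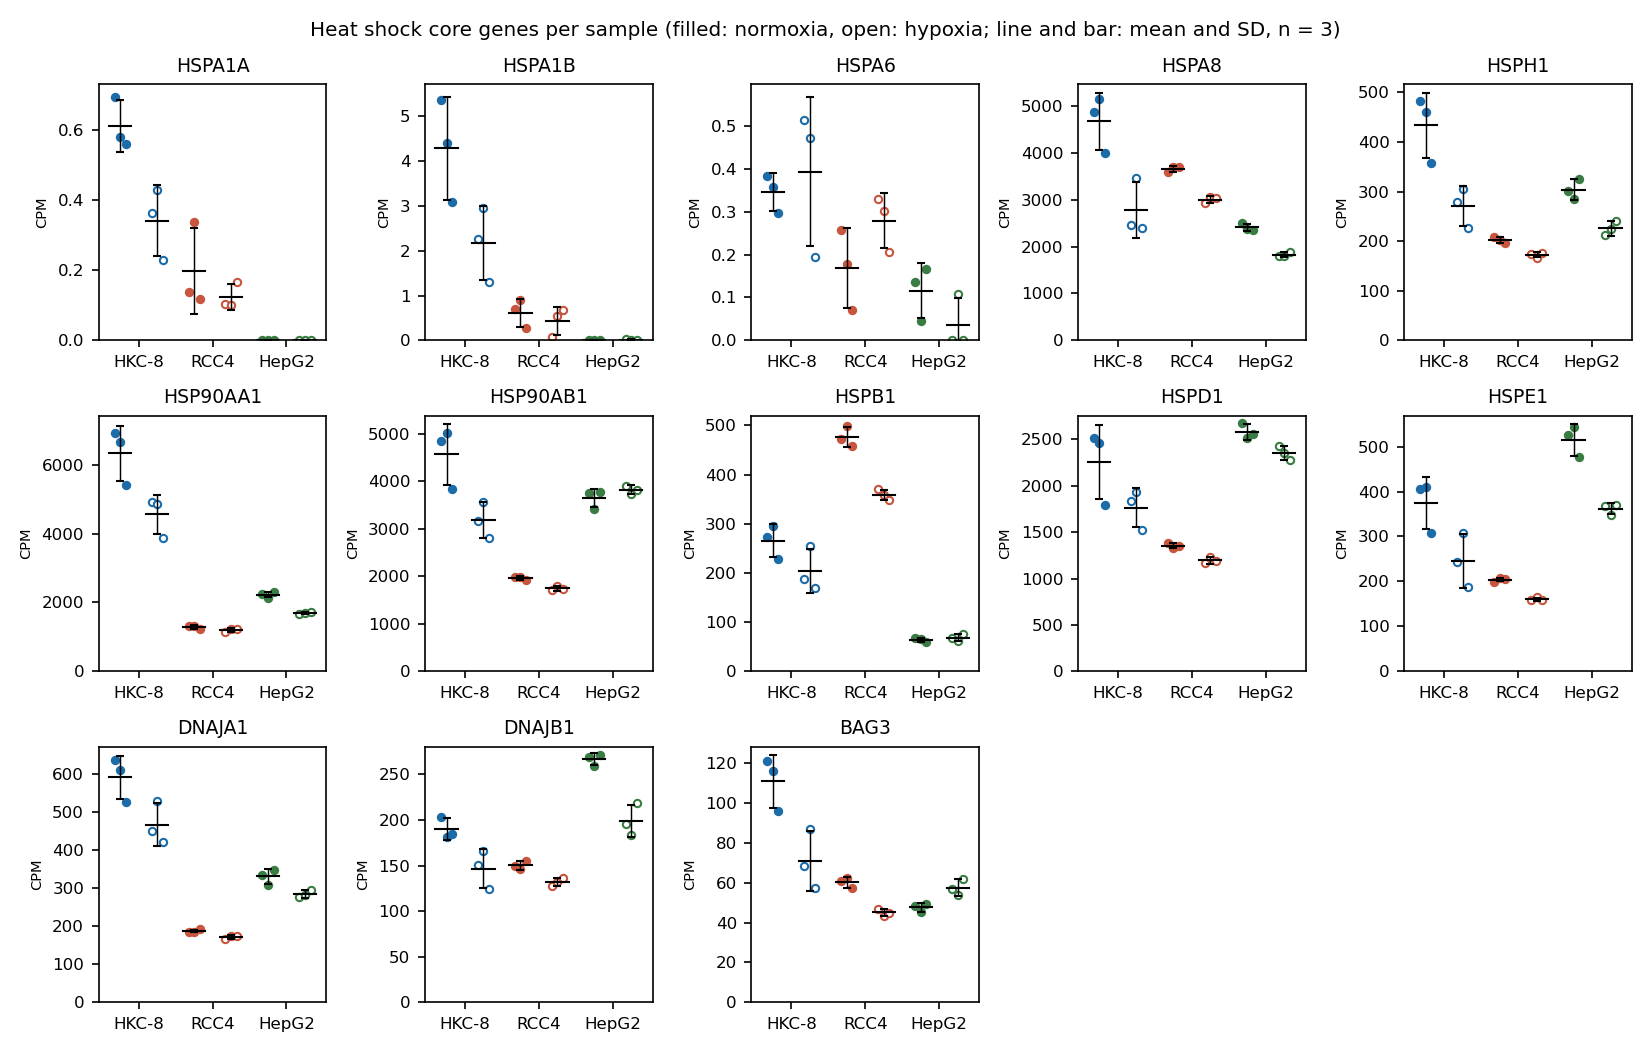
TMM-normalized CPM (vertical axes from 0) of the 13 heat shock core genes in each of the 18 samples, by cell line, with the mean and SD of 3 samples. HSPA8, HSPH1, HSPE1 and DNAJB1 are lower in hypoxia in each line, HSPA1A, HSPA1B and HSPA6 reach 5.37 CPM at most, and BAG3 is higher in hypoxia in HepG2 cells.

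HSP90 is the chaperone of signalling proteins, with an inducible form, HSP90AA1, and a constitutive one, HSP90AB1. HSP90AA1 was at 6920, 6647 and 5424 CPM in normoxic and 4919, 4858 and 3885 CPM in hypoxic HKC-8 cells. Every hypoxic sample was below every normoxic one, and the log2 fold change was -0.47 ± 0.13 (SE; edgeR adjusted p = 0.0316). In HepG2 cells it went from 2245, 2138 and 2297 to 1666, 1692 and 1737 CPM, again without overlap (-0.39 ± 0.06; edgeR adjusted p = 0.00019). In RCC4 cells it went from 1330, 1308 and 1236 to 1136, 1242 and 1216 CPM, where the groups overlapped and the fall was smaller (-0.10 ± 0.04; edgeR adjusted p = 0.019). HSP90AB1 fell in HKC-8 (-0.52 ± 0.13) and RCC4 cells (-0.17 ± 0.03) but was at 3747, 3423 and 3775 CPM in normoxic and 3914, 3727 and 3829 CPM in hypoxic HepG2 cells, which overlapped. The HKC-8 calls of both genes were lost without either replicate 1, without normoxic replicate 2 or without hypoxic replicate 3. The RCC4 call of HSP90AA1 was lost without either replicate 1 or without normoxic replicate 2. HSP90AB4P, a pseudogene, was at 0.152 CPM or less throughout and was tested in no line.

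HSPA8, the constitutive cytosolic HSP70, was among the most abundant members. It was at 4873, 5150 and 3985 CPM in normoxic and 2460, 3469 and 2398 CPM in hypoxic HKC-8 cells, a log2 fold change of -0.75 ± 0.16 (edgeR adjusted p = 0.0123). In RCC4 cells it went from 3582, 3696 and 3690 to 2921, 3050 and 3033 CPM (-0.28 ± 0.03), and in HepG2 cells from 2496, 2382 and 2357 to 1803, 1794 and 1892 CPM (-0.40 ± 0.06). In each line every hypoxic sample was below every normoxic one. The HKC-8 call was lost without normoxic replicate 1 or without hypoxic replicate 1.

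Few counts were assigned to the stress-inducible HSP70 genes. HSPA1A, HSPA1B and HSPA6 share many windows with other genes, and HSPA1A and HSPA1B lie in the chromosome 6 stretch described above. Their low counts alone therefore cannot show that they were little expressed. HSPA1B was at 5.37, 4.41 and 3.08 CPM in normoxic and 2.26, 2.96 and 1.31 CPM in hypoxic HKC-8 cells, without overlap, and missed the threshold (-0.97 ± 0.30; edgeR adjusted p = 0.051; 0.00099 with the replicate block). It was at 0.894 CPM or less in RCC4 cells and at 0 counts in all normoxic HepG2 samples. HSPA1A was at 0.696 CPM or less in HKC-8 cells and at 0 counts in all HepG2 samples. HSPA6 was at 0.514 CPM or less in every sample and was called in neither line in which it was tested. HSPA1L and the pseudogene HSPA7 were tested in no line.

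HSPH1 and HSPA4 are HSP110 proteins, which exchange the nucleotide of HSP70. HSPH1 went from 482, 460 and 358 to 279, 306 and 227 CPM in HKC-8 (-0.68 ± 0.14), from 209, 202 and 197 to 173, 167 and 177 CPM in RCC4 (-0.23 ± 0.04) and from 302, 284 and 326 to 212, 224 and 241 CPM in HepG2 cells (-0.43 ± 0.07). HSPA4 went from 617, 603 and 508 to 352, 388 and 345 CPM in HKC-8 cells (-0.67 ± 0.10; edgeR adjusted p = 0.0027). For both genes the groups did not overlap in any line. The HKC-8 call of HSPH1 was lost without normoxic replicate 1. HSPA4L, a paralogue of HSPA4, showed the largest fall among called members in HepG2 cells, from 42.9, 39.9 and 48.3 to 27.2, 30.8 and 30.4 CPM (-0.57 ± 0.08), and also fell in HKC-8 cells (-0.34 ± 0.09, lost without either replicate 1). Its RCC4 value of 0.08 ± 0.06 was not called.

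Other HSP70 members behaved differently. HSPA14, a ribosome-associated HSP70, fell in HKC-8 (-0.37 ± 0.10, lost without either replicate 1) and HepG2 cells (-0.53 ± 0.09). HSPA2, best known from the testis, fell in RCC4 cells from 15.6, 16.5 and 14.6 to 11.2, 9.35 and 10.4 CPM (-0.59 ± 0.08). HSPA12A, a distant relative of HSP70, rose in RCC4 (0.28 ± 0.04) and HepG2 cells (0.22 ± 0.07, lost without any of 4 of the 6 libraries), and its HKC-8 value of 0.37 ± 0.14 was called only with the replicate block. HSPA9, the mitochondrial HSP70, was called in no line.

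HSPD1 and HSPE1 form the folding chamber of mitochondria and share a bidirectional promoter. HSPE1 went from 405, 410 and 307 to 243, 307 and 188 CPM in HKC-8 cells, where normoxic replicate 3 and hypoxic replicate 2 met (-0.60 ± 0.17; edgeR adjusted p = 0.0404). It went from 199, 207 and 206 to 159, 164 and 159 CPM in RCC4 (-0.34 ± 0.03) and from 525, 543 and 476 to 367, 347 and 370 CPM in HepG2 cells (-0.51 ± 0.07), both without overlap. The HKC-8 calls of HSPE1 and of DNAJB1, described with the DNAJ genes, were lost in the same 4 omissions as those of the HSP90 genes. HSPD1 fell in RCC4 cells (-0.17 ± 0.03). In HKC-8 cells HSPD1 was at -0.35 ± 0.14, called only with the replicate block, and in HepG2 cells at -0.14 ± 0.06, which was not called.

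The small heat shock proteins hold unfolded proteins without ATP. HSPB8, the partner of BAG3, showed the largest fall among called members in RCC4 cells, from 74.3, 76.7 and 75.5 to 46.6, 45.2 and 47.2 CPM (-0.70 ± 0.04; edgeR adjusted p = 4.35e-12). It fell in HepG2 cells at a far lower level, from 5.55, 5.24 and 4.63 to 3.93, 3.52 and 3.91 CPM (-0.44 ± 0.13), a call lost without hypoxic replicate 2, normoxic replicate 1 or normoxic replicate 2. HSPB1, or HSP27, fell in RCC4 cells from 472, 498 and 459 to 370, 358 and 349 CPM (-0.40 ± 0.04). Its HKC-8 value of -0.38 ± 0.15 was called only with the replicate block. In HepG2 cells HSPB1 was at 67.1, 66.1 and 59 CPM in normoxia and 68.4, 61.7 and 75.2 CPM in hypoxia, which overlapped. HSPB7 rose in HepG2 cells on 3 counts in normoxia and 45 in hypoxia, summed over 3 samples each, a ratio of 14.5 with an exact 95% counting interval of 4.66 to 73. HSPB3 and HSPB9 were tested in no line.

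DNAJA and DNAJB proteins are the general partners of HSP70. DNAJB1, the main stress-inducible HSP40, went from 203, 181 and 184 to 151, 166 and 124 CPM in HKC-8 (-0.37 ± 0.11), from 149, 146 and 155 to 128, 132 and 137 CPM in RCC4 (-0.18 ± 0.04) and from 269, 260 and 271 to 196, 183 and 218 CPM in HepG2 cells (-0.42 ± 0.07). No groups overlapped. DNAJB4 fell from 97.1, 88.1 and 102 to 64.8, 63.3 and 60.6 CPM in HKC-8 cells (-0.60 ± 0.08), and by smaller amounts in RCC4 (-0.28 ± 0.06) and HepG2 cells (-0.41 ± 0.08). DNAJA1 fell in RCC4 (-0.12 ± 0.04) and HepG2 cells (-0.22 ± 0.06, lost without hypoxic replicate 1 or 2), and its HKC-8 value of -0.34 ± 0.11 was called only with the replicate block. DNAJB5 fell in RCC4 cells alone among the calls (-0.52 ± 0.15).

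DNAJB2, a co-chaperone that carries ubiquitin-interacting motifs, went the other way in HKC-8 cells, from 42.6, 49.1 and 52.1 to 67.4, 77.4 and 61.1 CPM (0.52 ± 0.11; edgeR adjusted p = 0.0128), and rose in RCC4 cells (0.18 ± 0.06). The HKC-8 call was lost without normoxic replicate 1 and the RCC4 call without normoxic replicate 1 or 3. DNAJB14 rose in RCC4 cells (0.25 ± 0.07). DNAJB13, known from cilia and sperm, rose in HKC-8 cells from 4, 10 and 20 counts to 62, 46 and 66 counts (2.36 ± 0.49), a call lost without hypoxic replicate 1. In HepG2 cells DNAJB13 had 2 counts over the normoxic and 67 over the hypoxic samples, a ratio of 32.4 with an exact 95% counting interval of 8.62 to 273. Its level stayed under 1 CPM in every sample. DNAJA4, DNAJB3, DNAJB8 and the pseudogene DNAJA1P5 were tested in no line.

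DNAJC proteins are a mixed class with specialised tasks. DNAJC15, of the mitochondrial inner membrane, fell in each line (-0.38 ± 0.08, -0.12 ± 0.04 and -0.20 ± 0.07 in HKC-8, RCC4 and HepG2 cells), although the HepG2 call sat at an edgeR adjusted p of 0.0496 and was lost with DESeq2, with median-of-ratios size factors and without any of 5 of the 6 libraries. Its HKC-8 call was lost without either replicate 1, and its RCC4 call without either replicate 3. DNAJC2, which joins HSPA14 at the ribosome, fell in HKC-8 cells by 0.59 ± 0.13 on the log2 scale, and DNAJC7 by 0.40 ± 0.08. Both calls were lost without either replicate 1. DNAJC17 fell in HKC-8 cells from 10.2, 10.4 and 10 to 6.17, 6.94 and 7.16 CPM (-0.59 ± 0.12), a call lost without hypoxic replicate 1. DNAJC19, of the mitochondrial import motor, fell in HepG2 cells (-0.48 ± 0.09), as did DNAJC8 (-0.34 ± 0.06) and DNAJC24 (-0.31 ± 0.09). DNAJC18 rose in RCC4 cells from 15.2, 15.9 and 16.3 to 22.6, 20.7 and 24.3 CPM (0.52 ± 0.07) and in HepG2 cells from 6.55, 5.37 and 7.57 to 10.1, 9.45 and 8.87 CPM (0.55 ± 0.13). DNAJC13, of the endosome, rose in RCC4 cells from 84.2, 77.4 and 82.4 to 111, 109 and 109 CPM (0.44 ± 0.04), as did DNAJC25 (0.38 ± 0.08) and DNAJC21 (0.23 ± 0.05), while DNAJC21 fell in HKC-8 cells (-0.34 ± 0.07, lost without either replicate 1). DNAJC4 rose in HepG2 cells from 15.8, 15.3 and 13.7 to 24.4, 21.3 and 21 CPM (0.57 ± 0.09), and DNAJC5, the cysteine string protein, by 0.33 ± 0.06. DNAJC5B and DNAJC5G were tested in no line.

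Among the BAG genes, most of which encode nucleotide exchange factors of HSP70, BAG2 fell in each line, most in HKC-8 cells, from 127, 117 and 108 to 70.4, 75.3 and 66.9 CPM (-0.72 ± 0.09; edgeR adjusted p = 0.00091). BAG3, which directs clients to autophagy, fell from 121, 116 and 95.7 to 68.2, 86.9 and 57.3 CPM in HKC-8 (-0.64 ± 0.15, lost without either replicate 1) and from 60.7, 62.2 and 57.2 to 47, 43.2 and 44.9 CPM in RCC4 cells (-0.41 ± 0.05). In HepG2 cells BAG3 rose from 48.2, 45.2 and 49.4 to 56.6, 53.7 and 62 CPM (0.27 ± 0.07; edgeR adjusted p = 0.00749), a call lost in the joint fit of 18 samples. BAG4 fell in RCC4 (-0.33 ± 0.05) and HepG2 cells (-0.24 ± 0.07). BAG1 fell in HKC-8 cells (-0.50 ± 0.11, lost without either replicate 1) and rose in RCC4 cells (0.15 ± 0.06), the latter call being lost without any of 5 of the 6 libraries. BAG6 rose in HepG2 cells from 221, 200 and 222 to 266, 254 and 263 CPM (0.28 ± 0.06), a call also lost in the joint fit.

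Genes outside the set that work with these chaperones are given for comparison. HSF1 itself fell in RCC4 cells (log2 fold change -0.17, edgeR adjusted p = 0.00153, lost in the joint fit), stood at -0.03 in HKC-8 and 0.06 in HepG2 cells, where it was not called, and HSF2 was called in no line. All 8 subunits of TRiC, the cytosolic chaperonin, had values below 0 in each line, and 5, 7 and 6 of them fell in HKC-8, RCC4 and HepG2 cells, with medians of -0.33, -0.19 and -0.17. Over 41 partners in all (HSFs, HSP90 and HSP70 co-chaperones, TRiC and prefoldin), 14 of 41 fell in HKC-8 cells (28 with the replicate block), 21 of 40 tested in RCC4 and 19 of 41 in HepG2 cells, and 2, 1 and 1 rose. Beside these stand 9.12%, 24.2% and 19.2% of all genes tested that were called lower. The partners called lower numbered 2 in HKC-8 cells without either replicate 1 and 6 without normoxic replicate 2 or hypoxic replicate 3, 9 in HepG2 cells without hypoxic replicate 2, and 25 in HKC-8 and 11 in RCC4 cells in the joint fit. Of the 15307 genes tested in the joint fit, 2510 were called lower in HKC-8 and 1419 in RCC4 cells. The HSP90 co-chaperone CHORDC1 fell in HKC-8 (-0.55) and HepG2 cells (-0.47), as did TTC4 (-0.56 and -0.45), and both HKC-8 calls were lost without either replicate 1. In RCC4 cells the largest changes called were those of HSPBP1 (-0.45), the small heat shock protein CRYAB (-0.39) and PFDN2 (-0.35, lost in the joint fit). CRYAB also fell in HKC-8 cells (-0.53) and rose in HepG2 cells, from 3.31, 2.86 and 3.44 to 5.86, 4.39 and 5.17 CPM (0.68 ± 0.15), the largest change of a partner called there. HSF4 rose in HKC-8 cells (1.21). Of the 4 reticulum genes that the choice of symbols left out, 0 were called in HKC-8 cells, 3 fell and 1 rose in RCC4 cells, and 3 fell in HepG2 cells.

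**Figure D3:**
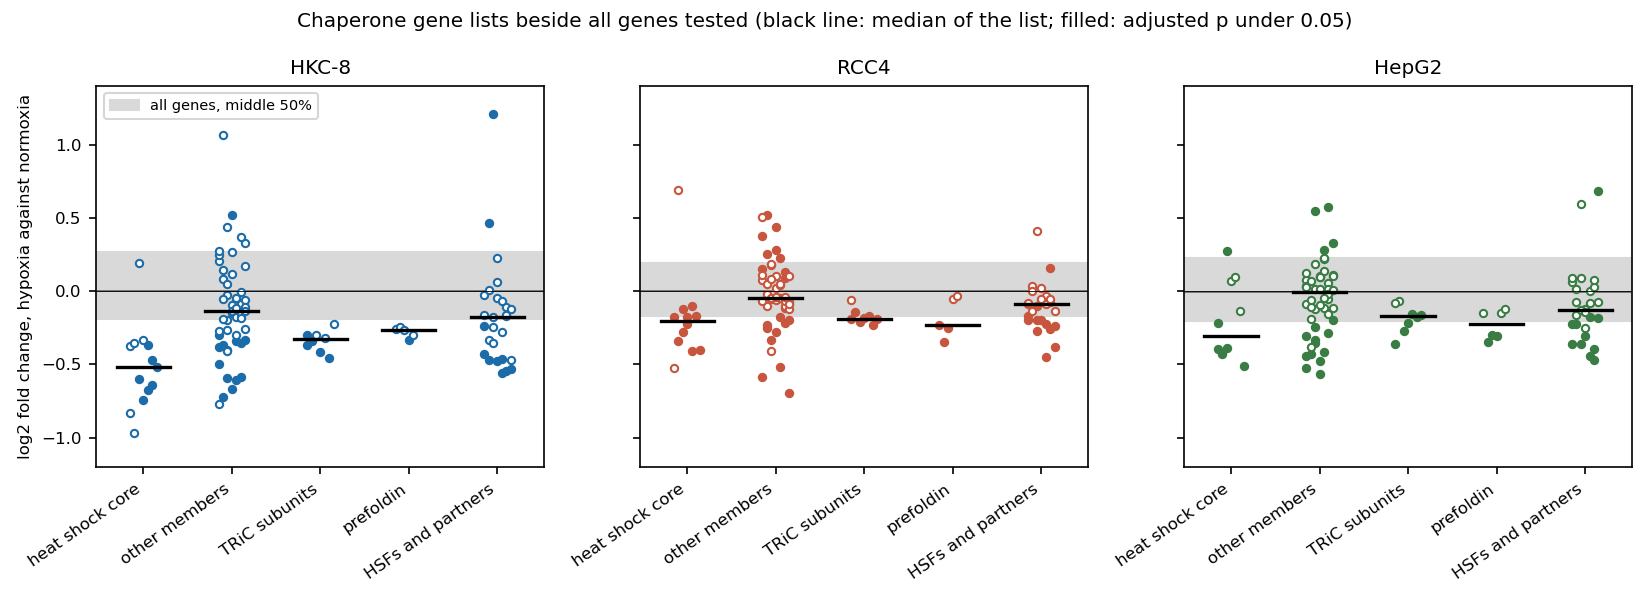
Log2 fold change in hypoxia (vertical axis) of the genes of each list in the 3 cell lines, each point being 1 gene, filled at an adjusted p under 0.05, with the list median as a black line and the middle 50% of all genes tested in grey. The medians of the heat shock core lie at -0.52, -0.20 and -0.30 in HKC-8, RCC4 and HepG2 cells; in HKC-8 cells 1 other member and 1 prefoldin gene, and in HepG2 cells 2 other members, lie beyond the axis.

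The response differed between HKC-8 and HepG2 cells for a few members. If the hypoxic HKC-8 titles, which state 0.1% oxygen, are right, cell line and oxygen level cannot be told apart in this comparison. By the interaction of cell line and oxygen, 5 of 66 members responded higher in HepG2 than in HKC-8 cells (7.58%, background 5.02% of 9.3% called) and 0 lower (background 4.28%). With the replicate block these counts were 13 and 1, where 11% and 9.06% of all genes were called. BAG3 differed by 0.92 ± 0.18 on the log2 scale (edgeR adjusted p = 0.00415), HSP90AB1 by 0.59 ± 0.15 (edgeR adjusted p = 0.0227), BAG1 by 0.58 ± 0.13 (edgeR adjusted p = 0.0111) and DNAJC7, a DNAJ protein that binds HSP90 and HSP70, by 0.48 ± 0.11 (edgeR adjusted p = 0.0103). BAG3 was the only one of these 4 called in both lines, lower in HKC-8 (lost without either replicate 1) and higher in HepG2 cells (lost in the joint fit). The HSP90AB1 call was lost without either HKC-8 replicate 1, without normoxic HKC-8 replicate 2 or without normoxic HepG2 replicate 2, and the HSPB2 call in 7 such omissions. HSPB2 was called at 1.16 ± 0.32, on 5 to 15 counts per HepG2 sample, and CRYAB, which it overlaps, differed by 1.21 ± 0.17.

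**Figure D4:**
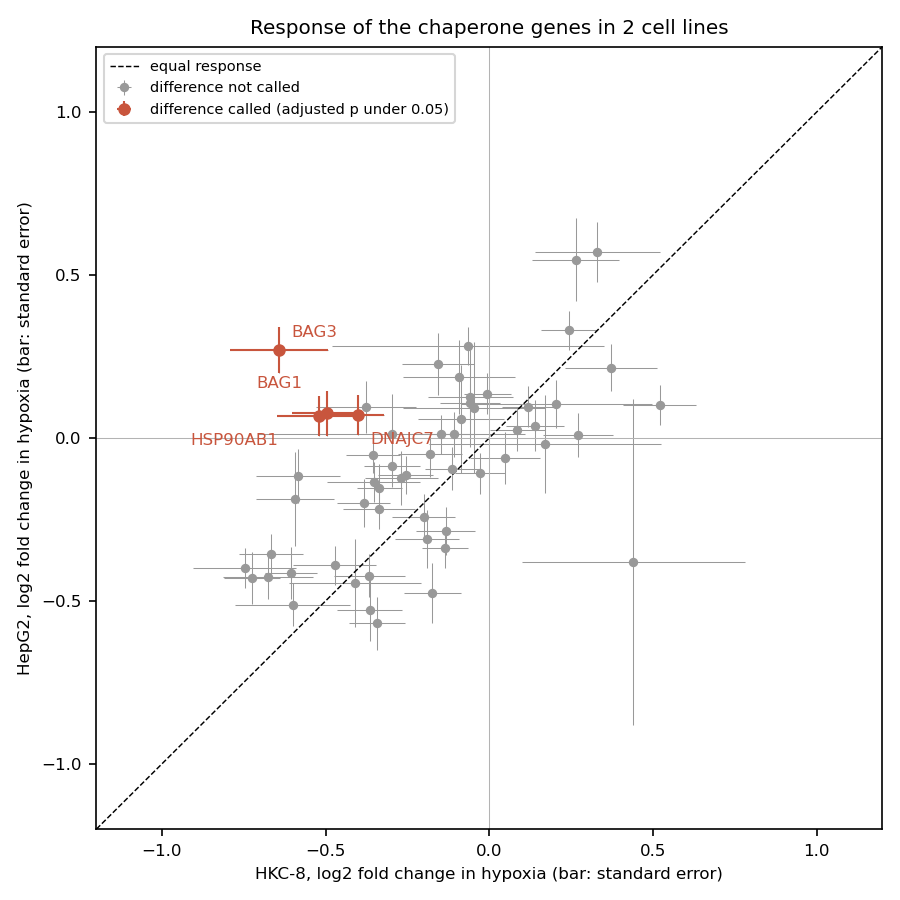
Log2 fold change in hypoxia of 58 members in HKC-8 (horizontal axis) and HepG2 cells (vertical axis), with standard errors and the line of equal response. BAG3, BAG1, HSP90AB1 and DNAJC7, for which the difference was called, lie above the line; DNAJB13 lies beyond the axes, and HSPB2 was not tested within HepG2 cells.

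In normoxia the members differed widely between the lines, as did most genes. Between RCC4 and HKC-8 cells 16 of 64 members were higher and 38 lower in RCC4 (25% and 59.4%, background 39.4% and 41.4% of 80.8% called). Between HepG2 and HKC-8 cells 16 were higher and 37 lower in HepG2 (25% and 57.8%, background 42.6% and 40.5% of 83% called), and between HepG2 and RCC4 cells 31 were higher and 23 lower in HepG2 (48.4% and 35.9%, background 45.3% and 38.1% of 83.3% called, with the median of all genes at 0.11). HKC-8 cells thus had the higher level of most members called, and per length the members made up 2.87% ± 0.25 of transcripts in HKC-8 cells, against 1.44% ± 0.02 for RCC4 and 1.59% ± 0.07 for HepG2 cells. Cell line and any difference in how the libraries of each line were made cannot be told apart in these comparisons.

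HSP90AA1 was at 6330 ± 797 CPM (SD, n = 3) in HKC-8 cells, against 1291 ± 49.1 for RCC4 and 2227 ± 81 for HepG2 cells, a log2 difference of -2.28 ± 0.10 between RCC4 and HKC-8. DNAJC2, a ribosome-associated DNAJ protein, was at 107 ± 19.9, 15.8 ± 1.35 and 40 ± 4.02 CPM in the same order, and DNAJC17 at 10.2 ± 0.23, 1.81 ± 0.34 and 5.62 ± 0.27 CPM. HSPA2 was highest in RCC4 cells, at 15.6 ± 0.98 CPM against 0.94 ± 0.18 in HKC-8 and 0.29 ± 0.18 in HepG2 cells. HSPA12A stood at 4.59 ± 0.18, 63.7 ± 2.17 and 28.9 ± 1.26 CPM, and DNAJC6, the neuronal auxilin, at 12.8 ± 1.75, 52.2 ± 1.66 and 4.54 ± 0.59 CPM in HKC-8, RCC4 and HepG2 cells. DNAJC4 was lower in HKC-8 cells (3.05 ± 0.71 CPM) than in RCC4 cells (19.9 ± 0.74 CPM).

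Of the 4 small heat shock protein genes tested in normoxia, HSPB1, HSPB2 and HSPB8 were lower in HepG2 than in HKC-8 cells, and HSPB11 was higher (38.2 ± 2.43 against 30.7 ± 2.16 CPM). HSPB8 was at 5.14 ± 0.47 CPM against 65.9 ± 9.73 in HKC-8 and 75.5 ± 1.23 in RCC4 cells, and HSPB2 at 0.15 ± 0.05 CPM against 28.2 ± 1.53 and 91.8 ± 4.17. CRYAB, which shares sequence with HSPB2, was likewise lower in HepG2 than in HKC-8 cells (-4.41 ± 0.10). DNAJC12, a co-chaperone of aromatic amino acid hydroxylases, was higher in HepG2 cells (12 ± 2.03 CPM) than in HKC-8 (0.66 ± 0.37) and RCC4 cells (1.58 ± 0.29), as were HSPA12B (3.77 ± 0.32 against 0.41 ± 0.10 and 0.28 ± 0.10) and DNAJC22 (30.8 ± 1.21 against 3.72 ± 1.41 and 18.5 ± 0.85). DNAJC7 was lower in RCC4 cells (35.9 ± 1.22 CPM) than in HepG2 cells (116 ± 7.75). DNAJB7 and DNAJB13, also among the largest differences, were under 1 CPM in every sample, and the DNAJB13 call between HepG2 and HKC-8 cells was lost without any of 3 libraries.

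For the members on chromosome 6 the values are given with the limit above. BAG6 was at 1.66 ± 0.53, 0.34 ± 0.26 and 214 ± 12.2 CPM in HKC-8, RCC4 and HepG2 cells. HSPA1B, at 0 counts in normoxic HepG2 cells, was at least 62.9-fold higher in HKC-8 and at least 9.09-fold higher in RCC4 cells, taking 3 counts per library as the floor, and HSPA1A at least 9.02-fold and 2.89-fold.

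Per length, on a scale of TPM, in which counts are divided by exonic length and scaled to a fixed total, the order of levels differed between lines. In HKC-8 cells HSP90AB1 (8034 ± 816 TPM) and HSP90AA1 (6511 ± 629 TPM) overlapped at the top, followed by HSPA8 (5044 ± 448 TPM) and HSPD1 (1549 ± 223 TPM), each apart from the next. In RCC4 cells HSPA8 (3547 ± 31.4 TPM) led, then HSP90AB1 (3109 ± 81 TPM), HSPB1 (1381 ± 56.5 TPM) and HSP90AA1 (1192 ± 53 TPM), without overlap between neighbours. In HepG2 cells the order was HSP90AB1 (5445 ± 394 TPM), HSPA8 (2210 ± 65.8 TPM), HSP90AA1 (1943 ± 112 TPM), HSPD1 (1506 ± 60.9 TPM) and HSPE1 (1254 ± 56.7 TPM), again without overlap. Of the 76 members with a length, 20, 18 and 16 reached 100 TPM in HKC-8, RCC4 and HepG2 cells, and 18, 19 and 20 were under 1 TPM.

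**Figure D5:**
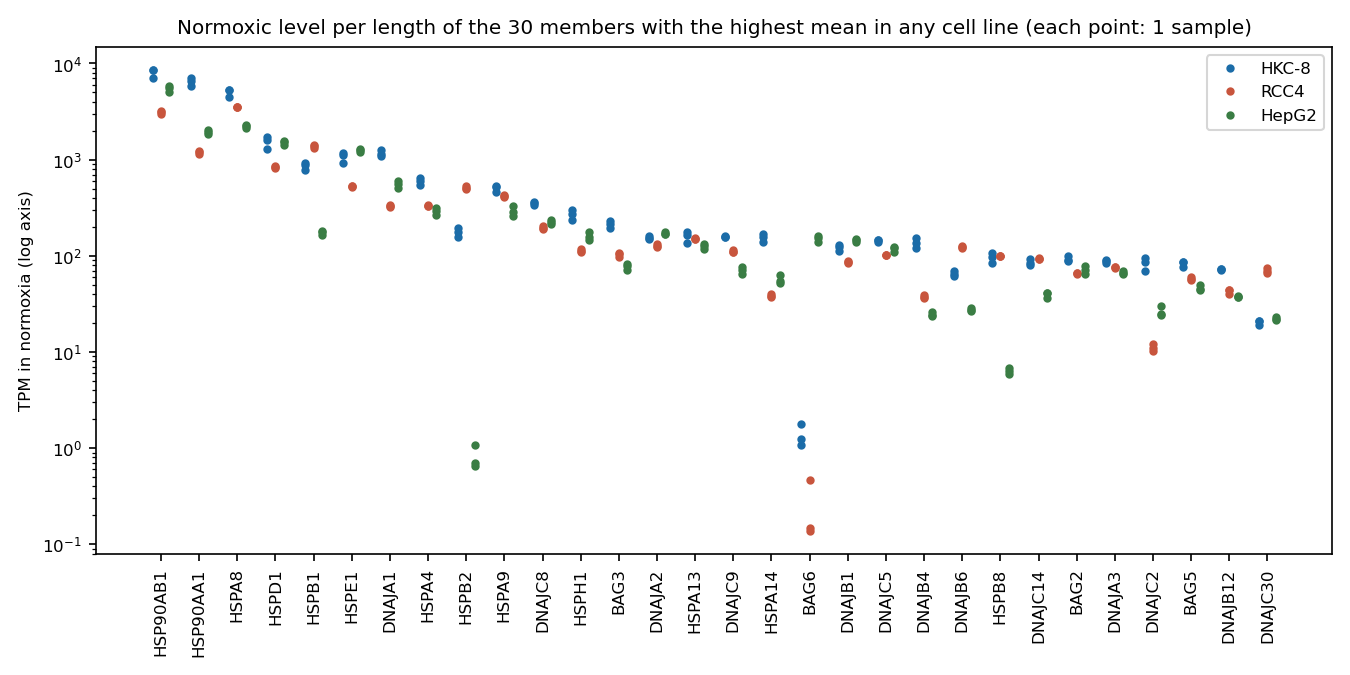
TPM in normoxia (vertical axis, logarithmic) of the 30 members with the highest mean level in any cell line, each point being 1 sample. HSP90AB1, HSP90AA1 and HSPA8 lie at the top, and BAG6 in HKC-8 and RCC4 and HSPB2 in HepG2 cells lie far below the other lines.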

How the data were processed

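PolyA+ RNA libraries of 18 samples were analysed from the deposited raw counts per gene, which the authors made without normalization. Per the labels and methods, reads were trimmed with Trim Galore 0.3.3, aligned to GRCh37 with TopHat2 2.0.8b and Bowtie 1.0.0, filtered for unique mapping with SAMtools 0.1.19, and counted on UCSC genes with HTSeq 0.5.4p3 in intersection-strict mode. The strand setting of the counting is not given in the sources used here, so reads of a gene and an antisense partner cannot be told apart. The total count per sample was 40915980 to 97984260, so 3 counts, taken as the floor of a library, lie below 0.1 CPM. Floors and counting intervals cover counting error only.

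Each cell line was fitted apart with R 4.3.3 and edgeR 4.0.16 (filterByExpr, TMM, glmQLFit and glmQLFTest), with Benjamini-Hochberg adjustment over all genes tested and a threshold of 0.05. The response of HKC-8 and HepG2 cells was compared by an interaction in 1 fit of 12 samples, and normoxic lines in 1 fit of 9. The standard error is the log2 fold change divided by the square root of F. CPM are TMM-normalized, and TPM use GENCODE exonic lengths, which may differ from the gene models counted. Promoters come from RefSeq (GRCh38.p14) and were placed on GRCh37 by exact match. The tests were checked on simulated counts with known changes.

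The members and lists were chosen with earlier results of these data known. Named were the core genes, the 8 largest rises and falls called per line, members called in the same direction in all lines, members called in the interaction, the 5 largest differences in each direction per normoxic comparison, HSF1 and HSF2, and the 3 partners with the largest change called per line. Members tested in no line are named to account for them.

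The labels number the replicates of each condition and do not state that equal numbers are pairs. The residuals of samples with equal numbers correlated at 0.11, 0.45 and 0.45 in HKC-8 cells, at -0.01, 0.03 and 0.01 in RCC4 cells and at 0.17, 0.06 and 0.18 in HepG2 cells. Equal numbers were read as pairs in HKC-8 cells only. The main tests held no replicate block in any line, HKC-8 included, and the block was used as an alternative. Alternatives were DESeq2 1.42.0, size factors by median of ratios, testing without the low-count filter, a stricter filter of 10 counts in each sample, a joint fit of the 18 samples, the replicate block, and leaving out each sample.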

Additional observations from a re-analysis of the deposited data

Results flagged for a closer look

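The hypoxic response of 5 of 66 members (7.58%) differed between HepG2 and HKC-8 cells by the interaction test, where 9.3% of all genes tested were called. If the hypoxic HKC-8 titles, which state 0.1% oxygen, are right, cell line and oxygen level cannot be told apart here. The difference, HepG2 minus HKC-8 on the log2 scale, was 1.16 ± 0.32 for HSPB2, 0.92 ± 0.18 for BAG3, 0.59 ± 0.15 for HSP90AB1, 0.58 ± 0.13 for BAG1 and 0.48 ± 0.11 for DNAJC7. The edgeR adjusted p was 0.0382, 0.00415, 0.0227, 0.0111 and 0.0103 in that order. All 3 hypoxic HepG2 samples were above all 3 normoxic ones for BAG3, and the reverse held in HKC-8 cells; within HepG2 cells the BAG3 call was lost in the joint fit of 18 samples. For HSPB2 the HepG2 samples held 5 to 15 counts, and the part of CRYAB reads in it was not tested.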

How the results depend on the processing

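Over 1573 recomputed values of the named genes, 1464 kept their side of the threshold, 91 were no longer called and 18 became called. None changed direction while called. Some values that were not called changed sign with 1 sample left out, as HSF1 did in HKC-8 cells (-0.17 to 0.06). In 1 fit of all 18 samples, 6 members rose in HKC-8 cells, 5 rose and 9 fell in RCC4 cells, 2 core genes fell in RCC4 and 0 rose in HepG2 cells, 25 partners fell in HKC-8 and 11 in RCC4 cells, and the interaction called 8 members higher and 1 lower. Of the 15307 genes tested in that fit, 2503 rose and 2510 fell in HKC-8 cells, and 1867 rose and 1419 fell in RCC4 cells. The interaction called 1209 of them higher and 1010 lower. DESeq2 and a minimum of 10 counts in every sample each called 1 member lower in the interaction, and that minimum left 1 member higher in HKC-8 cells. By counts in place of length-scaled levels, the members made up 2.49% of the normoxic total in HKC-8 and 1.37% in RCC4 cells. The cause of these shifts was not tested.

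With the replicate block, 6 members rose, 11 core genes fell and 28 partners fell in HKC-8 cells, and the interaction called 13 members higher and 1 lower. Of the values given for named genes the block added DNAJA1, HSPA12A, HSPA1B, HSPB1 and HSPD1 in HKC-8 cells and changed no other call, RCC4 and HepG2 cells included, where equal numbers were not read as pairs.

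With 1 sample left out and no replicate block, members higher in HKC-8 cells numbered 1 to 3 and lower 4 to 25, core genes lower 0 to 10, partners higher 1 to 2 and lower 2 to 19. In HepG2 cells partners higher numbered 1 to 2 and lower 9 to 21, the latter count being 9 without hypoxic replicate 2. The interaction called 3 to 8 members higher and 0 to 1 lower. The RCC4 counts (7 to 10 higher, 20 to 22 lower), the HepG2 counts (7 to 8 and 14 to 18) and the normoxic counts stayed within 1.5 times the full-sample value. Depth limits DNAJB13, HSPB7, HSPA6 and, in HepG2 cells, HSPB2, which rest on few counts.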
